A study of Rattus norvegicus with 94 samples.

Results

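The comparison was between the livers of male SD (Sprague-Dawley) rats killed 48 h after 1 dose of sodium valproate (VPA, 2000 mg/kg, in distilled water; 4 arrays) and the livers of male SD rats killed 48 h after distilled water alone (vehicle; 5 arrays). Members were chosen by their titles, as the VPA 48 h treated and VPA 48 h vehicle arrays of single livers, which gave 9 arrays of the 94 in the series. Pooled arrays of the same groups were left out of every test. The labels do not give the route of dosing, the age of the animals, their feeding or the hour of killing. The series as a whole dosed rats with clofibrate, VPA or di(2-ethylhexyl) phthalate (DEHP) and held 76 individual arrays in 18 groups and 18 pooled arrays. The responses used for comparison were those to 20 g/kg DEHP (5 livers) against distilled water (5 livers) and to 1000 mg/kg clofibrate (5 livers) against 0.9% saline (5 livers), each at 48 h, and to the same dose of VPA (4 livers) against distilled water (5 livers) at 168 h, all in male SD rats given 1 dose. The doses of the compounds differ, and the values are set side by side as given. The question put here was which liver transcripts differed 48 h after VPA from those of vehicle rats of the same time, and where that response differed from those to DEHP and clofibrate at 48 h and to VPA at 168 h.

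Valproate is an anticonvulsant drug and is itself a branched short-chain fatty acid. In liver it is joined to coenzyme A and carnitine, is oxidised in mitochondria and by cytochrome P450 enzymes, inhibits histone deacetylases, and is known for fatty liver as an adverse effect. In rodent liver fatty acids and many acidic drugs act through the nuclear receptor PPAR-alpha, whose classical target genes encode enzymes of peroxisomal and mitochondrial fatty acid oxidation.

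Total RNA of each liver was hybridised to an Affymetrix rat array with 8799 probe sets, and the values are the authors' MAS 5.0 signals, a linear brightness scaled on each array to a target of 1500. Median signals of the 9 arrays were 316.8 to 350 in VPA livers and 310.1 to 356.8 in vehicle livers, and 34 to 36.5% of probe sets in VPA livers and 31.7 to 36.4% in vehicle livers lay under 150, the floor to which lower signals were raised. Signals carry no depth, and the number of arrays limits the precision. The log2 ratio of 3' to 5' control signals was 0.18 to 0.383 in VPA livers and 0.234 to 0.385 in 4 vehicle livers, and 0.753 in vehicle replicate 2. That array also stood apart on the axis of the second principal component, at -23.11 against -4.175 to 12.71 in the other 4 vehicle livers. The axis of the first, with 60.9% of the variance, had all VPA livers at -30.19 to -25.13 and all vehicle livers at 22.26 to 23.88. Scan records put VPA replicates 1 to 3 and vehicle replicates 1 to 3 on 1 day, vehicle replicate 4 on another, and VPA replicate 4 and vehicle replicate 5 on a day of their own. The scan record of VPA replicate 1 notes a time-out of a fluidics sensor, and without that array 1513 probe sets were called in place of the 1695 given next.

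Liver gene expression differed widely between the groups. Among the 4269 probe sets whose mean signal reached 500 in some group, limma called 1695 (39.7%) at a Benjamini-Hochberg threshold of 0.05, 911 (21.3%) higher and 784 (18.4%) lower after VPA. The 4 VPA and 5 vehicle arrays did not overlap for 1315 of the 4269 (30.8%). After median centring the split was 801 higher and 918 lower, and after quantile normalization 855 higher and 836 lower. Folds are ratios of geometric mean signals (from mean log2 values, after the floor), so they can differ from the ratio of the arithmetic means printed beside them, and "at least" marks a bound on that scale. Differences of at least 2-fold made up 305 of the higher calls and 257 of the lower calls, and 75 and 54 of them reached 4-fold. With 1 probe set per gene, 995 of 2578 genes (38.6%) were called, 535 (20.8%) higher and 460 (17.8%) lower, and the median log2 change of all 2578 genes was -0.00957. These shares are the background for every gene list below, which are given as tested members called higher, called lower and not called. Every list is described and none was tested as a set. Labels do not say whether the livers of 1 group came from 1 or several dosing sessions, so adjusted p values measure the spread between these animals only. On the arrays of the first scan day alone (3 against 3), all 1695 calls kept their direction, and 1056 probe sets were called. Those arrays are among the ones that gave the calls, so the shared direction is no independent check.

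**Figure D1:**
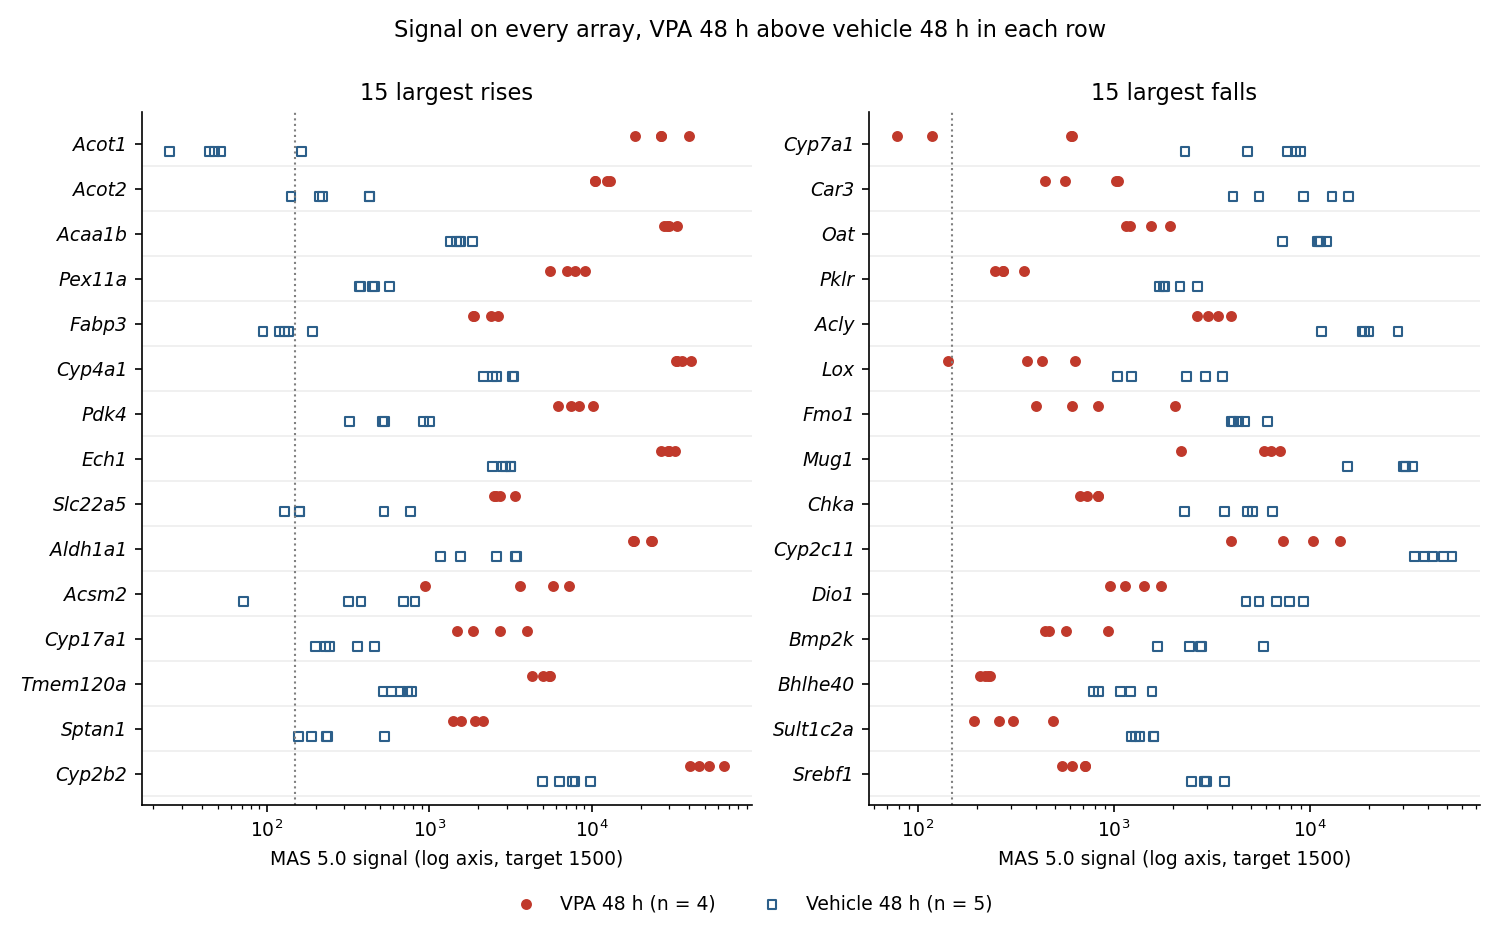
MAS 5.0 signal (log axis, scaled to a target of 1500) of the 15 largest rises and 15 largest falls on every array, with VPA 48 h livers (filled circles, n = 4) above vehicle 48 h livers (open squares, n = 5) in each row and the floor of 150 as a dotted line. VPA and vehicle livers did not overlap for any of the 30 genes, as the rule for naming them required. Acot1 spans 18572 to 39585 in VPA livers against 25.2 to 163 in vehicle livers, and Cyp7a1 78.6 to 612 in VPA livers against 2312 to 8929 in vehicle livers.

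The largest rises were those of acyl-CoA thioesterases, of Acot1 and Acot2. Acot1, a cytosolic acyl-CoA thioesterase, had signals of 26811, 26846, 18572 and 39585 in VPA livers, against 47.8, 44.5, 163, 52.4 and 25.2 in vehicle livers. Every VPA liver was far above every vehicle liver, and 4 of the 5 vehicle livers lay under the floor, so the rise was at least 177-fold (log2 change 7.47 ± 0.15 SE, adjusted p = 7.91e-21). All VPA and vehicle livers of 168 h in the same fit also lay under the floor, and floored arrays show no spread. The fitted spread, and with it this SE and adjusted p, is therefore smaller than that among the VPA livers. Over the alternative settings the adjusted p in limma was up to 7.5e-07. Acot2, the mitochondrial thioesterase, had 12946, 12445, 10533 and 10483 in VPA livers, against 220, 141, 428, 431 and 211 in vehicle livers. That is at least 43.7-fold by geometric means (adjusted p = 1.55e-13), with no overlap. Because liver was profiled as bulk RNA, a change in RNA per cell and a change in the number of cells of a type cannot be told apart.

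Of 25 tested genes of peroxisomal beta-oxidation and peroxisome biogenesis 11 rose, 5 fell and 9 did not pass (median log2 change 0.29). Acaa1b, the peroxisomal thiolase, had signals of 29911, 27798, 29160 and 33559 in VPA livers, against 1467, 1567, 1845, 1356 and 1533 in vehicle livers. The VPA livers were 19.4-fold higher (log2 change 4.28 ± 0.21, adjusted p = 3.43e-13). Pex11a, which acts in the division of peroxisomes, had 9131, 7039, 7944 and 5552 in VPA livers, against 449, 571, 373, 459 and 378 in vehicle livers, a rise of 16.6-fold (adjusted p = 2.12e-14). The groups lay far apart for both genes. Ech1, an isomerase that handles unsaturated fatty acids, averaged 29629 ± 2228 (SD, n = 4) in VPA livers and 2909 ± 295 (n = 5) in vehicle livers, and was 10.2-fold higher. Ehhadh, the peroxisomal bifunctional enzyme, averaged 28857 ± 3040 in VPA livers and 4790 ± 1214 in vehicle livers, and was 6.14-fold higher.

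Further rises in that list were those of Abcd3, a transporter of acyl-CoA into peroxisomes (log2 change 1.87), Ephx2, an epoxide hydrolase (1.40), Pex19, an import factor for peroxisomal membrane proteins (1.39), Agxt, a glyoxylate transaminase (1.25), Hacl1, a lyase of branched fatty acid breakdown (1.16), Decr2, a dienoyl-CoA reductase (1.09), and Crot, the peroxisomal carnitine octanoyltransferase (1.03). Not all peroxisomal genes rose. The log2 change was -1.34 for Acox3, a branched-chain acyl-CoA oxidase, -0.63 for Cat, the peroxisomal catalase, -0.61 for Baat, which conjugates bile acids, -0.41 for Uox, urate oxidase, and -0.29 for Pxmp2, a peroxisomal membrane channel, and all 5 fell. On the first scan day alone 1 gene of the list was called lower, and 3 without VPA replicate 4. Hsd17b4 (0.26), Scp2 (-0.19), Acox2 (-0.21) and Amacr (-0.37) did not pass the test.

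Mitochondrial beta-oxidation and ketogenesis had 18 of 23 tested genes higher, 1 lower and 4 that did not pass (median log2 change 0.94). Eci1, an enoyl-CoA isomerase, had signals of 32496, 39324, 35751 and 39119 in VPA livers, against 4854, 5005, 7103, 7368 and 6393 in vehicle livers. The lowest VPA liver was thus above every vehicle liver, and the rise was 6.04-fold (adjusted p = 4.48e-10). Cpt2, the inner-membrane carnitine palmitoyltransferase, averaged 14466 ± 1888 in VPA livers and 3436 ± 317 in vehicle livers (4.2-fold, adjusted p = 6.73e-11). Hadhb, a subunit of the trifunctional protein, averaged 14876 ± 710 in VPA livers and 3997 ± 521 in vehicle livers (3.75-fold, adjusted p = 4.59e-11).

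Slc22a5, the plasma membrane carnitine transporter, had 2732, 2582, 2515 and 3351 in VPA livers, against 160, 527, 766, 128 and 159 in vehicle livers. No vehicle liver reached the VPA range, and the rise was at least 10.1-fold by geometric means (log2 change 3.34 ± 0.46, adjusted p = 3.56e-06). Rises along the carnitine shuttle were also seen for Slc25a20, the inner-membrane carrier (log2 change 1.25), Cpt1a, the outer-membrane enzyme of liver (1.13), and Cpt1b, its muscle form (0.85). Among the acyl-CoA dehydrogenases that start each cycle the rises were smaller, 0.77 for Acadvl, 0.56 for Acadm, 0.47 for Acads and 0.35 for Acadl. Echs1, the short-chain enoyl-CoA hydratase, was the 1 gene of the list that fell (-0.64), and it lost its call without VPA replicate 4. Acadsb (-0.92), which acts on short branched acyl-CoA, and Bdh1 (-0.43), a ketone body enzyme, did not pass the test.

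Of 24 tested genes for fatty acid omega-hydroxylation, activation, binding and thioester hydrolysis 13 rose, 5 fell and 6 did not pass (median log2 change 0.54). Cyp4a1, a fatty acid omega-hydroxylase, had 33250, 40818, 33574 and 35827 in VPA livers, against 3268, 2459, 3329, 2592 and 2172 in vehicle livers, a rise of 13.1-fold (adjusted p = 7.61e-13). Other omega-hydroxylases went the other way or did not pass. Cyp4f1, of another subfamily, averaged 9183 ± 533 in VPA livers and 24664 ± 1781 in vehicle livers and fell by 1.42 on the log2 scale (SE 0.10, adjusted p = 2.94e-10). Cyp4f6 (-1.11) and Cyp4f4 (-0.42) also fell, while Cyp4a3 (-0.84) and Cyp4a8 (-0.15) did not pass. Acsm2, a mitochondrial medium-chain acyl-CoA synthetase, had 7243, 5799, 3643 and 944 in VPA livers, against 319, 818, 695, 380 and 71.7 in vehicle livers. VPA replicate 4 came close to the highest vehicle liver, and the rise was at least 8.65-fold (SE 0.51 on the log2 scale, adjusted p = 3.36e-05). The long-chain synthetases Acsl1 (0.04) and Acsl5 (-0.03) did not pass, and Acsl4 rose (0.49).

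Fatty acid binding proteins did not move together. Fabp3, the heart-type protein, had 1886, 1867, 2642 and 2392 in VPA livers, against 94.9, 121, 129, 137 and 192 in vehicle livers. The groups did not overlap and 4 of 5 vehicle livers lay under the floor, so the rise was at least 13.8-fold (adjusted p = 5.42e-10). Fabp1, the abundant liver-type protein, fell (log2 change -0.50), Fabp5 rose (0.89) and Fabp7 did not pass (0.04). Rises were also measured for Acot7 (2.20), a cytosolic thioesterase, Cd36 (1.38), a fatty acid uptake receptor, Slc27a1 (1.04) and Slc27a2 (0.60), transporters with acyl-CoA synthetase activity, and Plin2 (0.68), a lipid droplet coat protein.

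The RefSeq windows around gene starts (build GRCr8, 250 bases before to 50 after the start) were searched for 2 patterns of letters on both strands, AGGNCA repeated after 1 further base, the direct repeat bound by PPAR and related receptors, and TGATGNAAN, the composite element of C/EBP and ATF factors. Of the 136 genes named as largest changes or from a list, 106 had 1 window, 6 had several, which were not used, and 24 had none. Genes named only for a difference of responses were not searched. The repeat was present in 1 of the 106 windows (0.943%), against 139 of all 33469 windows (0.415%), and the composite element in 2 of the 106 (1.89%), against 1328 of 33469 (3.97%). None of the windows of the largest rises held the repeat (12 windows) and none of the largest falls held either pattern (11 windows). A match describes letters only, and its absence says nothing of a factor. The 3 matches were those of Fabp3, of Trib3, a stress-induced pseudokinase described below, and of Gys2, liver glycogen synthase, and all 3 genes rose. Their windows are shown for the 120 bases that end just before the start, 5′ to 3′ along each gene, with the match in capitals.
Fabp3 (TGATGNAAN, opposite strand, chr5:147936005-147936124, plus strand): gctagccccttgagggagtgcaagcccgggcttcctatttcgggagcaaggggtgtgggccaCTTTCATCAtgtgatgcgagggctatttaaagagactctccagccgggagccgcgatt
Trib3 (TGATGNAAN, opposite strand, chr3:161275534-161275653, minus strand): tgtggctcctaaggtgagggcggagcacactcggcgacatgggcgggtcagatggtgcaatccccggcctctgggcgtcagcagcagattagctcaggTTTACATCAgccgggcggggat
Gys2 (the repeat, same strand, chr4:177137237-177137356, minus strand): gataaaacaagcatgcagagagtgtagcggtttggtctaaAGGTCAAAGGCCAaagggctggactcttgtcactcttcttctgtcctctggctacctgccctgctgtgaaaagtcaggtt

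**Figure D2:**
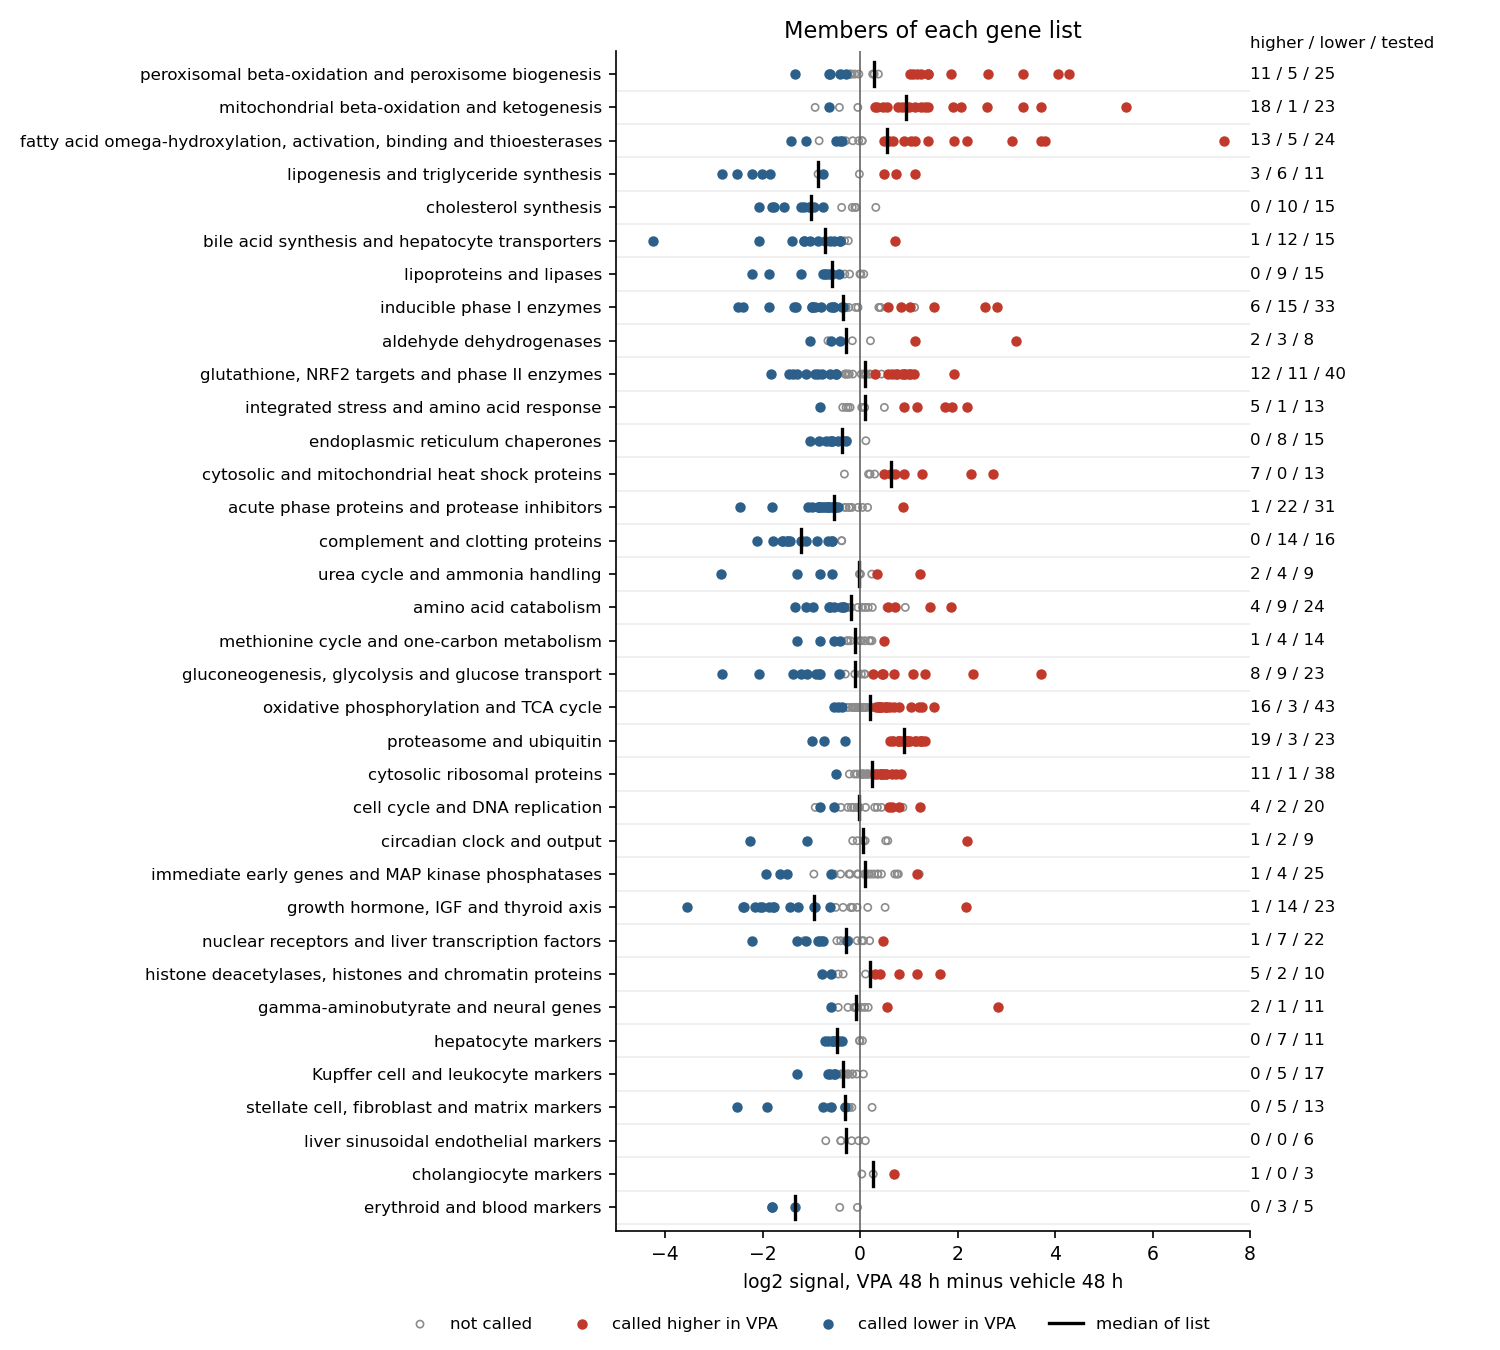
Log2 change of each tested gene (1 probe set per gene), VPA 48 h minus vehicle 48 h, in rows of gene lists. Red points were called higher, blue points called lower and open points not called, the black bar is the median of the list, and the text at the right gives the genes called higher, called lower and tested. Proteasome genes lie above 0 except for 3 called lower, and no complement or clotting gene lies above 0.

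Of 11 tested genes of lipogenesis and triglyceride synthesis 6 fell, 3 rose and 2 did not pass (median log2 change -0.86). Acly, ATP citrate lyase, had 3040, 3387, 3988 and 2668 in VPA livers, against 20038, 28172, 18462, 18966 and 11467 in vehicle livers. The groups did not overlap, and VPA livers were 5.77-fold lower (log2 change -2.53 ± 0.25, adjusted p = 3.37e-08). Pklr, liver pyruvate kinase, had 273, 351, 247 and 272 in VPA livers, against 2667, 1715, 1826, 1795 and 2178 in vehicle livers, 7.09-fold lower (adjusted p = 9e-09). Srebf1, the transcription factor that drives lipogenic genes, averaged 647 ± 82 in VPA livers and 3001 ± 429 in vehicle livers and was 4.63-fold lower. Fasn, fatty acid synthase (log2 change -1.85), Scd, the delta-9 desaturase (-2.01), and Elovl5, an elongase (-0.76), fell too. The 3 genes that rose were Dgat1, which completes triglyceride synthesis (1.12), Me1, malic enzyme (0.73), and Gpd1 (0.49).

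In the cholesterol synthesis list 10 of 15 tested genes fell, none rose and 5 did not pass (median log2 change -0.999). Cyp51, which demethylates lanosterol, had 1647, 1411, 1586 and 899 in VPA livers, against 5866, 10299, 4592, 5987 and 3603 in vehicle livers. The highest VPA liver lay below the lowest vehicle liver (4.22-fold lower, adjusted p = 2.46e-07). Nsdhl, which acts after it, averaged 1731 ± 315 in VPA livers and 5880 ± 709 in vehicle livers (3.42-fold lower, adjusted p = 1.78e-08). Msmo1 and Fdps, a sterol oxidase and the farnesyl diphosphate synthase, were 2.97-fold and 1.94-fold lower, and Fdps was not called against the mean of the 3 vehicle groups at 48 h (adjusted p = 0.0502). Idi1 (log2 change -1.80), Insig1 (-1.22), Ebp (-1.15), Lss (-1.04), Fdft1 and Dhcr7 (-0.77) completed the falls. Sqle, squalene epoxidase (-0.11), and Mvk, mevalonate kinase (-0.38), did not pass.

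Of 15 tested genes for bile acid synthesis and hepatocyte transport 12 fell, 1 rose and 2 did not pass (median log2 change -0.72). Cyp7a1, the enzyme that sets the pace of bile acid synthesis, had 119, 612, 605 and 78.6 in VPA livers, against 2312, 8929, 8452, 4789 and 7716 in vehicle livers. VPA replicates 1 and 4 lay under the floor and no vehicle liver was near the VPA range, so the fall was at least 19.1-fold by geometric means (SE 0.64 on the log2 scale, adjusted p = 1.14e-05). The uptake transporters Slco1a4, at 1477, 1261, 1598 and 1404 in VPA livers against 6164, 7638, 7480, 5197 and 4495 in vehicle livers, and Slc10a1, the sodium-dependent bile acid carrier, were 4.24-fold and 2.65-fold lower (adjusted p = 4.66e-08 and 2.27e-09). Slc10a1 was not called against the mean of the 3 vehicle groups at 48 h (adjusted p = 0.0743). Abcc2, a canalicular exporter (-1.16), Cyp7b1 (-1.14), Nr1h4, the bile acid receptor (-0.86), Cyp27a1 (-0.71) and Abcb11, the bile salt export pump (-0.40), fell as well. Of this list 6 genes were called lower against the mean of the 3 vehicle groups at 48 h and 7 on the first scan day alone. Abcb4, the canalicular phospholipid exporter, was the gene that rose (0.72, not called in the fit of all 76 individual arrays), and Nr0b2, a repressor downstream of the bile acid receptor, did not pass (-0.24).

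Of 15 tested genes of lipoproteins and lipases 9 fell and 6 did not pass (median log2 change -0.58). Apoa2, an apolipoprotein of high density lipoprotein, had 10905, 5202, 10848 and 9547 in VPA livers, against 42850, 48580, 30628, 48203 and 35504 in vehicle livers, with no overlap (4.63-fold lower, adjusted p = 1.86e-09). Apoa4 was 3.66-fold lower, Lcat, the plasma enzyme that esterifies cholesterol, 2.31-fold lower, and Apoh 1.7-fold lower. Apob, which carries the particles made in liver, and Apom (0.02) did not pass.

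**Figure D3:**
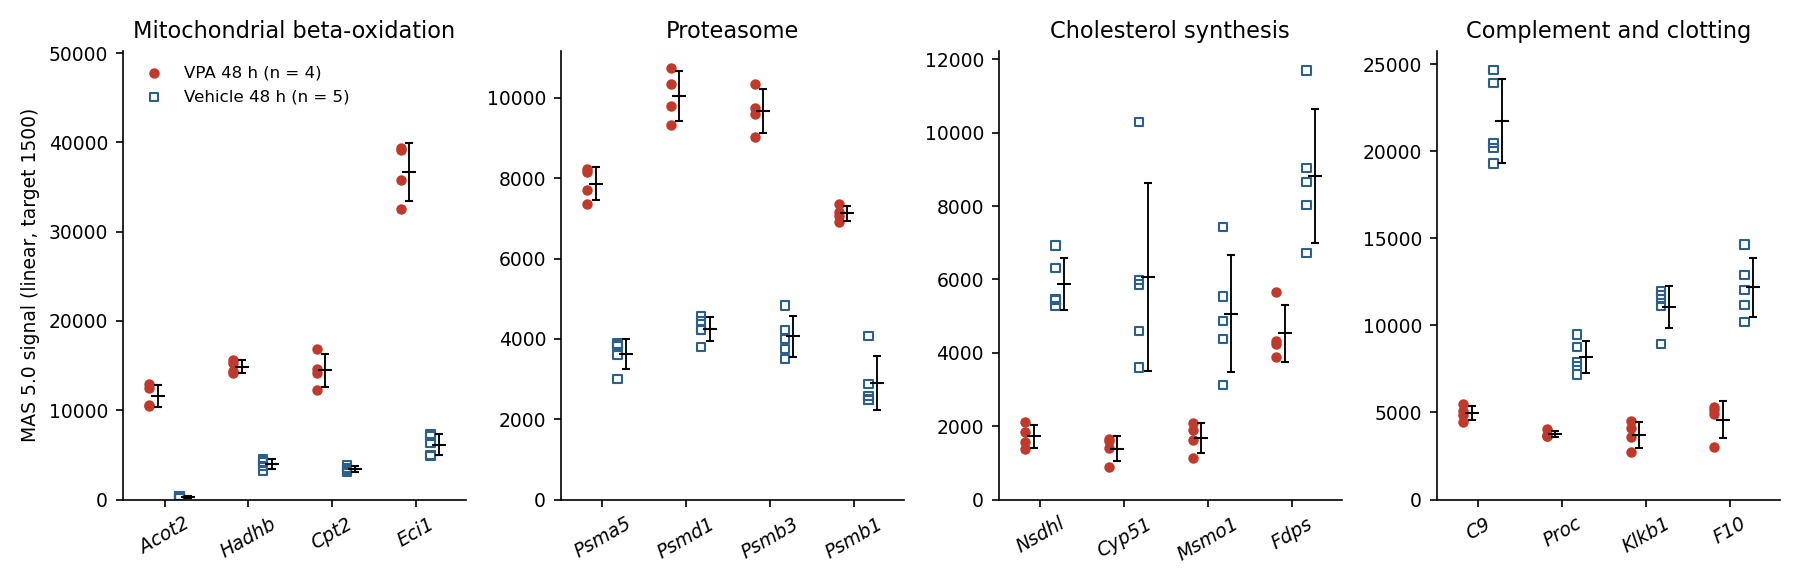
MAS 5.0 signal (linear axis from 0) of the 4 genes of smallest adjusted p in 4 gene lists, with VPA 48 h livers (filled circles, n = 4) left of vehicle 48 h livers (open squares, n = 5) and mean ± SD beside the points. Proteasome subunits lie at 6917 to 10749 in VPA livers and 2482 to 4834 in vehicle livers, and C9 at 4471 to 5460 in VPA livers and 19303 to 24673 in vehicle livers.

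The protein quality control lists differed from each other. Of 23 tested proteasome genes 19 rose, 3 fell and 1 did not pass (95.7% called, median log2 change 0.90). Psmb1, a subunit of the core particle, had 7063, 7356, 6917 and 7163 in VPA livers, against 2875, 4065, 2482, 2586 and 2487 in vehicle livers. VPA livers were closely grouped and all above the highest vehicle liver (2.5-fold, adjusted p = 8.6e-08). Psma5, Psmd1 and Psmb3, subunits of the core, the cap and the core again, were 2.18-fold, 2.37-fold and 2.4-fold higher (adjusted p = 4.99e-09, 4.99e-09 and 1.06e-08). The 3 genes that fell, Psmb8 (log2 change -0.997), Psmb9 (-0.73) and Psme1 (-0.31), encode 2 interferon-induced catalytic subunits of the immunoproteasome and a subunit of its activator, while Psme2, the partner of Psme1, rose (0.80). On the arrays of the first scan day alone 19 proteasome genes were still called higher.

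Among cytosolic and mitochondrial heat shock proteins 7 of 13 tested genes rose and 6 did not pass (median log2 change 0.63). Hspb1, a small heat shock protein, had 7001, 7674, 5452 and 6261 in VPA livers, against 773, 642, 988, 985 and 2012 in vehicle livers. No vehicle liver reached the lowest VPA liver (6.58-fold, adjusted p = 7.08e-07). Hspa1a, the inducible member of the Hsp70 family, had 1837, 621, 236 and 1017 in VPA livers, against 109, 21.2, 153, 126 and 95.8 in vehicle livers, at least 4.8-fold higher with a wide spread among VPA livers (adjusted p = 0.00033). Stip1, a co-chaperone, rose 2.43-fold and Hspe1, the mitochondrial co-chaperonin, 1.63-fold. Chaperones of the endoplasmic reticulum had 8 of 15 tested genes lower, none higher and 7 not called (median log2 change -0.36). Pdia4, Hyou1, Pdia3 and Pdia6, which fold secreted proteins, were 2.04-, 1.81-, 1.63- and 1.54-fold lower, and Hspa5 (-0.32) did not pass. On the first scan day alone 3 of these 15 were called lower.

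In the list of the integrated stress and amino acid response 5 of 13 tested genes rose, 1 fell and 7 did not pass (median log2 change 0.09). Trib3 had 861, 2901, 430 and 1634 in VPA livers, against 376, 387, 320, 245 and 418 in vehicle livers. VPA replicate 3 was just above the highest vehicle liver, and the rise was 3.35-fold (adjusted p = 0.0058, and 0.0982 on the arrays of the first scan day alone). Gadd45a, a growth arrest and damage response gene, had 4173, 5790, 3378 and 8302 in VPA livers, against 917, 932, 1375, 1406 and 1086 in vehicle livers, 4.54-fold higher (adjusted p = 1.31e-05). Phgdh and Psat1, enzymes of serine synthesis, rose (3.68-fold, and log2 change 1.17), as did Slc3a2, an amino acid transporter subunit (0.90). Ddit3 (0.09) and Atf3 (-0.21), transcription factors of the same response, did not pass.

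Drug-metabolising enzymes split into rises and falls. Of 33 tested phase I genes 6 rose, 15 fell and 12 did not pass (median log2 change -0.36). Cyp2b2, the phenobarbital-inducible P450, had 45689, 52986, 40126 and 65599 in VPA livers, against 7904, 7594, 9868, 4978 and 6370 in vehicle livers. The lowest VPA liver lay far above the highest vehicle liver (7.02-fold higher, adjusted p = 4e-08). Cyp2b15, of the same subfamily, was 5.94-fold higher, Cyp3a9 rose by a log2 change of 1.52 and Por, the electron donor of P450 enzymes, by 1.02. Cyp2c11, the main male-specific P450, had 7292, 3972, 14282 and 10352 in VPA livers, against 42163, 34256, 38367, 53091 and 48136 in vehicle livers, 5.28-fold lower (adjusted p = 1.63e-08). Fmo1, a flavin monooxygenase, had 836, 611, 2057 and 402 in VPA livers, against 4080, 3983, 4669, 4341 and 6079 in vehicle livers, 5.67-fold lower without overlap. Probe sets of P450, glutathione transferase, sulfotransferase, thioesterase and haemoglobin families may bind transcripts of close relatives, so a symbol there can stand for more than 1 gene.

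Aldh1a1, which oxidises retinaldehyde and other aldehydes, had 17988, 23484, 18233 and 23119 in VPA livers, against 2599, 3435, 3412, 1554 and 1176 in vehicle livers, a rise of 9.19-fold (adjusted p = 1.14e-08). Aldh2, the mitochondrial enzyme of ethanol metabolism, was 2.05-fold lower (adjusted p = 1.8e-08). Of the 8 tested aldehyde dehydrogenases 2 rose, 3 fell and 3 did not pass. Aldh3a2, which oxidises fatty aldehydes, had 13422, 8441, 10883 and 6246 in VPA livers, against 5287, 1572, 5563, 5110 and 6255 in vehicle livers, so that the groups overlapped, and its rise of 2.18-fold (adjusted p = 0.026) had an adjusted p of 0.0858 without vehicle replicate 2.

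The list of glutathione genes, NRF2 targets and phase II enzymes had 12 of 40 tested genes higher, 11 lower and 17 not called (median log2 change 0.10). Gstm5, a glutathione transferase, had 489, 794, 738 and 375 in VPA livers, against 23, 25.4, 69.8, 35.9 and 19.7 in vehicle livers. All vehicle livers lay under the floor, and the rise was at least 3.81-fold (adjusted p = 7.23e-08). Gsta4, which clears lipid aldehydes, and Gss, glutathione synthetase, were 1.99-fold and 2.03-fold higher, and Gclc, the catalytic subunit of the first enzyme of glutathione synthesis, had a log2 change of 0.90. Hmox1 (0.91) and Txnrd1 (0.75), which respond to oxidative stress, also rose, and Nqo1, another NRF2 target, did not pass (1.06). Among the falls were Gpx1, a glutathione peroxidase (1.71-fold lower), and the sulfotransferases Sult2a2 (-1.82), Sult2a6 (-1.47) and Sult2a1 (-1.38). Sult1c2a, a sulfotransferase among the largest falls, had 194, 259, 308 and 490 in VPA livers, against 1598, 1238, 1295, 1606 and 1349 in vehicle livers, 4.77-fold lower.

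Cyp17a1, Tmem120a and Sptan1 completed the largest rises. Cyp17a1, a steroid hydroxylase, had 1853, 2730, 4000 and 1478 in VPA livers, against 243, 230, 462, 363 and 200 in vehicle livers (8.22-fold, adjusted p = 3.7e-06). Tmem120a, a membrane protein, averaged 5098 ± 576 in VPA livers and 655 ± 105 in vehicle livers (7.83-fold, adjusted p = 1.38e-11). Sptan1, a spectrin of the membrane skeleton, was listed among neural genes and averaged 1753 ± 329 in VPA livers and 269 ± 149 in vehicle livers (7.1-fold). In that list of 11 tested genes 2 rose, 1 fell and 8 did not pass, and Abat, the transaminase that breaks down gamma-aminobutyrate, was at -0.13.

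Of 16 tested complement and clotting genes 14 fell and 2, F9 and Masp1 (both -0.38), did not pass (87.5% called, median log2 change -1.21). C9, the last component of the membrane attack complex, had 5064, 4471, 4855 and 5460 in VPA livers, against 19303, 24673, 20182, 20490 and 23906 in vehicle livers. The 2 groups were each tight and far apart (4.37-fold lower, adjusted p = 4.71e-14). Klkb1, plasma kallikrein, F10, a clotting factor, and Proc, protein C, were 3.01-, 2.7- and 2.17-fold lower, and Plg, plasminogen, had a log2 change of -1.78. Of 31 tested acute phase proteins and protease inhibitors 22 fell, 1 rose and 8 did not pass (median log2 change -0.54).

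Mug1, a murinoglobulin that binds proteases, had 6309, 5832, 7038 and 2202 in VPA livers, against 30827, 15615, 29903, 33262 and 30653 in vehicle livers, 5.55-fold lower (adjusted p = 4.66e-06). Its lowest values were those of VPA replicate 4 and, among vehicle livers, vehicle replicate 2. Serpina3m was 3.48-fold lower, and Cp (ceruloplasmin), Pzp and Itih4 were 2.09-, 1.99- and 1.82-fold lower. The rise was that of Lbp, which binds bacterial lipopolysaccharide (log2 change 0.89), and the acute phase genes Crp (0.15), Orm1 (-0.17) and A2m (-0.31) did not pass. The summed signal of the 11 tested hepatocyte markers, which include such secreted proteins, was 274550 to 370070 in VPA livers and 398320 to 497940 in vehicle livers, and its part in these falls was not tested. As scaled by the authors, 7 of the 11 hepatocyte markers were called lower, none higher and 4 not at all. With quantile normalization 17 acute phase genes were called lower and 2 higher, and 3 hepatocyte markers were called lower. Serpina1 had a log2 change of -0.66 as scaled. With quantile normalization it was -0.11 and not called in limma (adjusted p = 0.129).

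Nitrogen and sugar metabolism had large changes in single genes. Oat, ornithine aminotransferase, had 1544, 1939, 1161 and 1211 in VPA livers, against 11325, 7290, 10945, 12166 and 11076 in vehicle livers, 7.26-fold lower (adjusted p = 3.28e-08). Glul, glutamine synthetase, averaged 4050 ± 1244 in VPA livers and 9679 ± 799 in vehicle livers (2.46-fold lower). Otc and Cps1, which start the urea cycle, were 1.76-fold and 1.49-fold lower, and Asl, argininosuccinate lyase, was 2.34-fold higher, while Ass1 (-0.02) and Arg1 (0.24) did not pass. Over the urea cycle list of 9 tested genes 2 rose and 4 fell. Amino acid catabolism had 4 of 24 tested genes higher and 9 lower, among them Kmo and Kynu of tryptophan breakdown (2.54- and 1.55-fold lower), Cdo1 of cysteine breakdown (2.16-fold lower) and Got1, the cytosolic aspartate transaminase (log2 change 1.86). The methionine and one-carbon list had 1 of 14 tested genes higher (Mat1a, 1.4-fold) and 4 lower (Gamt, Cth, Bhmt and Aldh1l1, at 2.44-, 1.76- and 1.46-fold and a log2 change of -0.42). In the fit of all 76 individual arrays Mat1a, Cth and Bhmt were not called (adjusted p = 0.399, 0.216 and 0.064).

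Of 23 tested genes of glucose metabolism 8 rose, 9 fell and 6 did not pass (median log2 change -0.11). Pdk4, a kinase that switches off pyruvate dehydrogenase, had 10234, 6247, 8299 and 7481 in VPA livers, against 926, 324, 1003, 530 and 514 in vehicle livers, 13.1-fold higher (adjusted p = 1.03e-08). Fbp2, the muscle form of fructose bisphosphatase, averaged 1053 ± 141 in VPA livers and 210 ± 24.8 in vehicle livers (5.01-fold higher). Gys2 had 3865, 3297, 2953 and 2479 in VPA livers, against 1161, 1206, 1080, 1459 and 1337 in vehicle livers, 2.5-fold higher (adjusted p = 6.97e-08). Pck1, the gluconeogenic carboxykinase (0.02), and Fbp1, the liver bisphosphatase (0.08), did not pass, and Slc37a4 (-1.22), the glucose 6-phosphate transporter, Slc2a2 (-1.08), the liver glucose transporter, and Pygl (-1.37), glycogen phosphorylase, fell.

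In oxidative phosphorylation and the citric acid cycle 16 of 43 tested genes rose, 3 fell and 24 did not pass (median log2 change 0.21), and on the first scan day alone 7 were called higher. Aco1, the cytosolic aconitase, averaged 7233 ± 659 in VPA livers and 2516 ± 84.4 in vehicle livers (2.87-fold), and Suclg1, a subunit of succinyl-CoA ligase, 10482 ± 237 in VPA livers and 4561 ± 342 in vehicle livers (2.3-fold). Idh2, a mitochondrial isocitrate dehydrogenase, was 2.07-fold higher. Of 38 tested cytosolic ribosomal protein genes 11 rose, 1 fell and 26 did not pass (median log2 change 0.25), and 5 to 18 were called higher over the alternative settings.

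Genes of the growth hormone, IGF and thyroid axis were mostly lower, with 14 of 23 tested genes lower, 1 higher and 8 not called (median log2 change -0.95). Car3, carbonic anhydrase 3, had 1049, 563, 1031 and 449 in VPA livers, against 9328, 4056, 5509, 12977 and 15798 in vehicle livers. Vehicle livers were widely spread and none came near the VPA livers (11.7-fold lower, adjusted p = 8.44e-09). Dio1, which activates thyroid hormone, had 1136, 1421, 1736 and 954 in VPA livers, against 4732, 9331, 6764, 7882 and 5513 in vehicle livers, 5.2-fold lower (adjusted p = 4.99e-09). Hao2, a hydroxyacid oxidase, was 4.03-fold lower and Igfals, a subunit of the circulating IGF complex, 4.17-fold lower. Socs2 (-2.15), a target of growth hormone signalling, Ghr (-1.27), the receptor, and Igf1 (-0.95) fell, and both the male-specific Cyp2c11 and the female-specific Cyp2c12 (-1.87) were lower. Igfbp1, an IGF binding protein that rises in fasting, was the gene that rose (2.17). Without the filter no gene of this list was called higher, and the number was 0 to 2 over the alternative settings.

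Of 22 tested nuclear receptors and liver transcription factors 7 fell, 1 rose (Nr1h2, 0.47) and 14 did not pass (median log2 change -0.29). Nr3c1, the glucocorticoid receptor, averaged 282 ± 22.2 in VPA livers and 624 ± 144 in vehicle livers (2.17-fold lower, adjusted p = 0.000123). Cebpa, a hepatocyte transcription factor, was 2.45-fold lower (adjusted p = 0.104 on the first scan day alone) and Ppard, a lipid-sensing receptor, 1.76-fold lower. Hnf4a (-0.48), Rxra (-1.15) and Nfe2l2 (-0.77), which encodes NRF2, did not pass. Among chromatin genes 5 of 10 tested rose and 2 fell, with Hdac6, a cytoplasmic deacetylase, 1.73-fold higher (920 ± 135 in VPA livers and 530 ± 63.9 in vehicle livers) and Hdac2, a nuclear histone deacetylase, 1.73-fold lower (688 ± 58.9 in VPA livers and 1229 ± 364 in vehicle livers). Hdac2 was not called against the mean of the 3 vehicle groups at 48 h (adjusted p = 0.44). Hmga1 and Nap1l1, a chromatin architectural protein and a histone chaperone, were 2.23-fold and 3.12-fold higher.

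Of 9 tested clock genes 1 rose, 2 fell and 6 did not pass. Bhlhe40, a repressor in the clock and in metabolism, had 230, 209, 233 and 220 in VPA livers, against 1567, 1082, 792, 1214 and 837 in vehicle livers (4.78-fold lower, adjusted p = 5.26e-06). Dbp, a clock output factor, had 1386, 1167, 975 and 729 in VPA livers, against 81.2, 1173, 91.4, 55.4 and 54.8 in vehicle livers. Vehicle replicate 2 lay among the VPA livers and the other 4 vehicle livers under the floor (log2 change 2.19 with all 5). Bmal1, the core activator, had 456, 689, 374 and 297 in VPA livers, against 1510, 368, 666, 1238 and 1403 in vehicle livers, and vehicle replicate 2 again lay among the VPA livers (2.12-fold lower, adjusted p = 0.0103). Without vehicle replicate 2 the log2 change was 2.79 for Dbp and -1.41 for Bmal1, and on the first scan day alone neither was called (adjusted p = 0.0812 and 0.429).

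Immediate early genes and MAP kinase phosphatases stayed mostly uncalled, with 1 of 25 tested genes higher, 4 lower and 20 not called, and the number called higher was 1 to 5 over the alternative settings (5 with a scan day block, 3 without vehicle replicate 1). The rise was that of Id1 (2.24-fold, adjusted p = 0.147 on the first scan day alone), whose 1 further tested probe set was not called. The falls were those of Klf6 (at least 3.82-fold), Tsc22d1 (3.13-fold), Cited2 (2.85-fold) and Id2 (log2 change -0.60), while Fos (0.23), Jun (0.08) and Egr1 (0.71) did not pass. In the cell cycle list 4 of 20 tested genes rose, 2 fell and 14 did not pass. Ccnd1, cyclin D1, averaged 2429 ± 681 in VPA livers and 1055 ± 350 in vehicle livers (2.33-fold higher, adjusted p = 0.000188), and of its 3 further probe sets 2 were called higher and 1 lower. Cdk4, its partner kinase, was 1.5-fold higher (adjusted p = 0.0739 on the first scan day alone), and Pcna (0.30), Ccnb1 (-0.13) and Top2a (-0.40), which mark replicating and dividing cells, did not pass.

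Chka and Bmp2k, kinases of choline and of protein substrates, and Lox, which cross-links collagen, completed the largest falls. Chka had 671, 731, 828 and 828 in VPA livers, against 5078, 2299, 3664, 4804 and 6450 in vehicle livers (5.53-fold lower, adjusted p = 5.62e-06), and Bmp2k was 4.9-fold lower. Lox had 432, 632, 143 and 359 in VPA livers, against 1041, 2345, 2945, 3581 and 1237 in vehicle livers, at least 5.73-fold lower by geometric means (adjusted p = 6.77e-05).

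Markers of other cell types were measured beside these changes. Of 13 tested stellate cell, fibroblast and matrix markers 5 fell and 8 did not pass, and Col3a1, a fibrillar collagen, had 828, 414, 1812 and 1247 in VPA livers, against 4154, 3522, 2923, 3742 and 3440 in vehicle livers (3.77-fold lower). The summed signal of the list was 44264 to 52543 in VPA livers and 63665 to 74238 in vehicle livers, and Des was under the floor on all 9 arrays. A large part of these sums was Fn1, fibronectin, with mean signals of 17152 in VPA livers and 29103 in vehicle livers. Its 2 further tested probe sets were not called. Against the mean of the 3 vehicle groups at 48 h Fn1 was not called in limma (adjusted p = 0.166). Of 5 tested erythroid and blood markers 3 fell, with sums of 10592 to 20016 in VPA livers and 34514 to 69880 in vehicle livers, and Hbb, a haemoglobin chain, was 3.52-fold lower. Kupffer cell and leukocyte markers had 5 of 17 tested genes lower, with sums of 20907 to 28427 in VPA livers and 26963 to 40468 in vehicle livers, and Cd2, Cd3d, Cd3g, Csf1r, Itgam and S100a8 were under the floor on every array. The single-array dependence of this list was high, since Lyz2, Aif1 and Cd4 each lost their call when some single array was left out. None of 6 tested sinusoidal endothelial markers passed in either direction, with sums of 5905 to 6791 in VPA livers and 6063 to 8555 in vehicle livers, and 1 of 3 tested cholangiocyte markers rose (Epcam, 1.62-fold, which lost its call without vehicle replicate 2, adjusted p = 0.0689). The part of blood, matrix and other cells in the changes of other genes was not tested.

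The response to VPA at 48 h was set against 3 other responses by a test of the difference itself, each with its own vehicle livers. Against the response to DEHP, a plasticizer, at 48 h, 359 of 4503 probe sets (7.97%) differed, 240 (5.33%) higher and 119 (2.64%) lower for VPA. Fabp3 differed by 3.98 on the log2 scale (SE 0.43, adjusted p = 2.54e-10), with mean signals of 2197 after VPA and 135 in its vehicle livers, and 113 after DEHP and 154 in its vehicle livers, where most arrays lay under the floor. Tspan3, a tetraspanin, moved in opposite directions, with log2 changes of 1.58 after VPA and -1.31 after DEHP, each called. Slco1a4 fell after VPA (-2.09) and had a change of 0.62 after DEHP that did not pass (difference -2.71 ± 0.38, adjusted p = 4.8e-07), Scd fell after VPA (-2.01) and rose after DEHP (1.47), and Gsta3 rose after both, by 1.10 after VPA and by 3.68 after DEHP. Apoa2, at -2.21 after VPA and -0.18 after DEHP, and Acly, at -2.53 after VPA and -0.47 after DEHP, fell after VPA and did not pass after DEHP. With median centring the share of differences that were higher for VPA was 44.9%, and with quantile normalization 53.9%, against 66.9% as scaled by the authors.

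Against clofibrate, a fibrate that activates PPAR-alpha, at 48 h, 511 of 4503 probe sets (11.3%) differed, 327 (7.26%) higher and 184 (4.09%) lower for VPA. That share of higher differences was 64% as scaled, 45.7% with median centring and 52.2% with quantile normalization, and the median difference over all probe sets was 0.0864 as scaled and -0.0293 with median centring. Cyp7a1 had mean signals of 354 after VPA and 6439 in its vehicle livers, and 5625 after clofibrate and 5406 in its vehicle livers. The difference was -4.13 on the log2 scale (SE 0.79, adjusted p = 0.00014). Srebf1 fell after VPA (-2.21) and rose after clofibrate (0.78), and the interferon regulatory factor Irf7 did likewise (-1.64 after VPA and 1.11 after clofibrate). Mean signals of Srebf1 were 647 after VPA and 3001 in the VPA vehicle livers. They were 2494 after clofibrate and 1549 in the clofibrate vehicle livers, so the vehicle groups also differed in level. Hdc, histidine decarboxylase, rose after both, by 1.42 after VPA and 4.25 after clofibrate, with all or nearly all vehicle livers at the floor. Igfbp1, at 2.17 after VPA and -1.52 after clofibrate, differed by 3.69 ± 1.09 (adjusted p = 0.0178), and its change after clofibrate did not pass (adjusted p = 0.123).

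Tango2, a protein of lipid and Golgi homeostasis, and Sptan1 rose after VPA and did not pass after either of the other compounds. Tango2 had changes of 2.75 after VPA, 0.12 after DEHP and -0.02 after clofibrate, and Sptan1 2.83 after VPA, -0.14 after DEHP and 0.34 after clofibrate. The differences were called for both genes and both compounds (adjusted p between 1.54e-05 and 0.0013). Of the 1695 probe sets called after VPA at 48 h, 621 (36.6%) were also called in the same direction after DEHP, which is 61.1% of the 1017 called after DEHP, and 646 (38.1%) after clofibrate, which is 52.4% of its 1232. A further 29 were called in the opposite direction after DEHP and 46 after clofibrate. The 1695 calls came from the fit of the VPA arrays alone. The DEHP and clofibrate calls came from the fit of all 76 individual arrays, which tested 4503 probe sets. In that fit VPA at 48 h had 1309 calls, so these shares mix 2 fits. Whether the overlaps exceed those of unrelated responses was not tested.

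**Figure D4:**
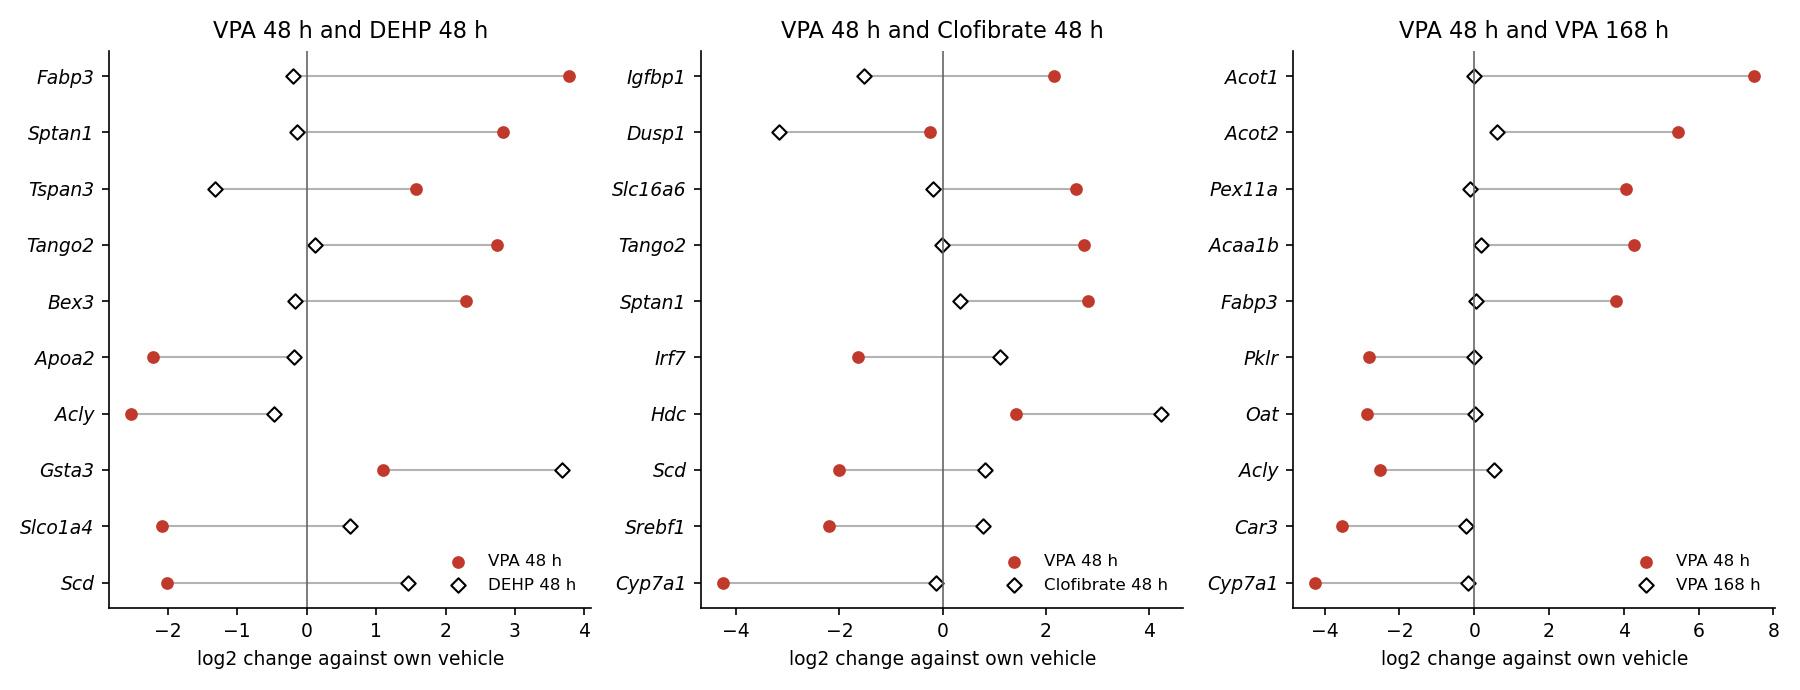
Log2 change against its own vehicle livers for the genes with the largest differences between the response to VPA at 48 h (filled circles) and that to DEHP at 48 h, clofibrate at 48 h or VPA at 168 h (open diamonds), 5 in each direction per panel. At 168 h every diamond lies within 1 log2 unit of 0, while at 48 h Acot1 is at 7.47 and Cyp7a1 at -4.26.

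By 168 h after VPA no probe set of 4269 was called against the vehicle livers of that time in limma (326 at an unadjusted p under 0.05, lowest adjusted p = 0.147). The difference between the responses at 48 h and 168 h was called for 1004 of 4269 probe sets (23.5%), 541 (12.7%) higher and 463 (10.8%) lower at 48 h. All 30 genes with the largest changes at 48 h were among the differences tested and called between the times, with adjusted p up to 0.0374 for Lox. These genes were chosen by their change at 48 h and the difference uses the same 48 h arrays, so their calls follow in large part from that choice. Acot1 had mean signals of 27954 at 48 h in VPA livers, against 66.5 in the vehicle livers, and of 92.3 at 168 h in VPA livers, against 89.4 in the vehicle livers. Cyp7a1 had 354 at 48 h in VPA livers, against 6439 in the vehicle livers, and 4701 at 168 h in VPA livers, against 4666 in the vehicle livers. Car3 (log2 change -0.21 ± 0.32 SE), Oat (0.01 ± 0.28), Pklr (0.0048 ± 0.26) and Acly (0.54 ± 0.25) did not pass at 168 h.

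Earlier VPA livers (3 at 4 h and 3 at 24 h) had no vehicle livers of their own time, and their means are given as levels. Acot1 had a mean signal of 168 at 4 h, 16545 at 24 h, 27954 at 48 h and 92.3 at 168 h after VPA. Fabp3 stayed low for longer, with 91.1 at 4 h, 290 at 24 h, 2197 at 48 h and 161 at 168 h. Cyp7a1 had 3798 at 4 h, 334 at 24 h, 354 at 48 h and 4701 at 168 h, and C9 17794, 8887, 4962 and 18591 at the same times.

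Pooled RNA of each group, on 1 array, gave the same direction as the single livers for all 30 genes with the largest changes and for 1654 of the 1695 calls (97.6%). Acot1 was at 36344 in the VPA pool, against 182 in the vehicle pool, and Cyp7a1 at 134 in the VPA pool, against 5220 in the vehicle pool. Pooled and single arrays may hold the same RNA and are not independent. Of 136 genes named as largest changes or from a list 62 had further tested probe sets, and of these 87 probe sets 74 were called in the same direction, 1 (for Ccnd1) in the opposite direction and 12 not at all. Id1, Pdia3, Hyou1, Otc and Ppard each had 1 further probe set, which was not called.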

How the data were processed

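Total liver RNA was extracted with RNA STAT-60 and 10 µg per array was hybridised, per the labels' protocols. The deposited values are MAS 5.0 signal intensity on a linear scale, which the authors set to a target of 1500 on each array, per the labels. No detection calls were used. Samples were grouped by title. Signals under 150 were raised to 150 and log2 transformed, and the 59 control probe sets dropped. A probe set was tested where some group of the fit averaged 500 or more. limma 3.58.1 in R 4.3.3 (lmFit, eBayes with a trend) was fitted to the 24 individual VPA arrays, and to all 76 individual arrays for differences from the DEHP and clofibrate responses, with Benjamini-Hochberg adjustment over all probe sets tested. A fold is given as "at least" where arrays of the lower group lay at the floor. One gene symbol was annotated for 7018 of 8799 probe sets, several for 308 and none for 1473. Error bars are SD over livers.

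Genes were named by rule: the 15 largest rises and falls that were called, averaged 1000 or more in whichever group was higher and did not overlap over the 9 arrays, up to 4 called genes of smallest adjusted p per list, and up to 5 genes per direction for each difference of responses. Other list members are given by their log2 change. Members and lists were chosen with earlier results of these data known. Promoter windows are those of RefSeq (GRCr8), read in Python 3.11.15. The fit was tested on simulated data of 3966 probe sets for the VPA 48 h comparison, where 44.1% of 1.5-fold, 94% of 2-fold and 98.5% of 4-fold changes were recovered and 5.99% of calls were false. The simulation changed 68, 67 and 65 probe sets of these sizes, drew independent normal noise and had 167 calls. The real comparison had 1695 calls, so the simulated rates may not hold for it. Correlations between the 9 arrays showed no identical pair. Alternatives were the floor, a pseudocount, the filter, the scaling, the samples in the fit, blocks for replicate number and scan day, array weights, the 3' to 5' ratio, the vehicle groups used and leaving out each array. The fit on the first scan day alone was chosen after the data were seen.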

Additional observations from a re-analysis of the deposited data

Results flagged for a closer look

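Within groups, 20 of 273 sets of livers (7.33%) had 1 array far from the others, where chance gives about 1 in 20, and 6 of the 20 were in vehicle replicate 2. Those 6 were Oat at 7290, Mug1 at 15615, Aldh3a2 at 1572, Fah at 20343, Mat1a at 5222 and Dbp at 1173. In VPA livers the arrays that stood apart were replicate 4 for Mug1 (2202) and F10 (3006), replicate 2 for Ehhadh (24330) and replicate 3 for Gsta4 (13158). In other vehicle livers they were replicate 1 for Cebpa (842), replicate 3 for Acot1 (163), Hspa1a (153) and Cited2 (1121), replicate 4 for Cyp4f1 (27786), Gpx1 (61403) and Klkb1 (8941), and replicate 5 for Fabp3 (192), Suclg1 (3958) and Icam1 (1269). For Acot1, Fabp3, Hspa1a and Dbp the other vehicle arrays lay under the floor. Once raised to it they were equal, so any array above the floor was flagged, and these cases cannot be set against that chance rate.

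The tested difference of log2 changes, VPA at 48 h minus DEHP at 48 h, was 3.98 for Fabp3, 2.97 for Sptan1, 2.89 for Tspan3, 2.62 for Tango2 and 2.47 for Bex3. It was -3.47 for Scd, -2.71 for Slco1a4, -2.58 for Gsta3, -2.06 for Acly and -2.03 for Apoa2. Minus clofibrate at 48 h it was 3.69 for Igfbp1, 2.93 for Dusp1, 2.78 for Slc16a6, 2.77 for Tango2 and 2.49 for Sptan1, and -4.13 for Cyp7a1, -2.99 for Srebf1, -2.83 for Scd, -2.82 for Hdc and -2.75 for Irf7. Minus VPA at 168 h it was 7.47 for Acot1, 4.85 for Acot2, 4.15 for Pex11a, 4.10 for Acaa1b and 3.73 for Fabp3, and -4.10 for Cyp7a1, -3.33 for Car3, -3.07 for Acly, -2.88 for Oat and -2.83 for Pklr. Sizes for Fabp3, Sptan1, Tango2, Slc16a6, Hdc, Acot1, Acot2, Cyp7a1, Irf7 and Dusp1 depend on the floor, because arrays of at least 1 group lay under it.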

How the results depend on the processing

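On the arrays of the first scan day alone, chosen after the data were seen, 1056 probe sets were called, 562 higher and 494 lower, with fewer arrays and fewer probe sets tested. Leaving out each array in turn gave 1513 to 1666 calls, 801 to 890 higher and 712 to 776 lower, and 287 to 348 differences from DEHP, 383 to 521 from clofibrate and 902 to 1034 from VPA at 168 h. Other settings gave between 1309 calls (all 76 individual arrays) and 1995 calls (mean of the 3 vehicle groups at 48 h). With a replicate block 1613 probe sets were called, and 346, 484 and 996 differences from DEHP, clofibrate and VPA at 168 h. Same-numbered VPA and vehicle livers had deviations that correlated at 0.119, 0.0692, 0.0956 and -0.0288, and livers of different numbers at -0.186 to 0.137. For VPA replicates 2 and 3 the same-numbered vehicle liver had the highest correlation. These values do not settle whether the numbers pair the livers, and the numbers were not taken to pair the samples. No named gene that was called reversed its direction in the alternatives run, while Icam1, not called, ranged from -0.22 to 0.24 on the log2 scale. The 30 largest changes kept their call in all of them, which their choice as the largest called changes makes likely. Dusp1 lost its difference from clofibrate in 7 of the alternatives, with adjusted p of 0.0882 at a floor of 300 and 0.0567 without the filter. Among the smaller changes of genes named as largest changes or from a list, Aldh3a2, Aldh5a1, Lyz2, Aif1, Cd4 and Epcam lost their call without some single array. Echs1, given only by its log2 change, lost its call without VPA replicate 4. Other genes given only by their log2 change were not followed 1 by 1. The number of ribosomal protein genes called higher was 5 to 18, and the number of ER chaperones called lower 3 to 11. Genes called lower numbered 6 to 12 for bile acid synthesis and transport, 1 to 5 for the peroxisomal list, 1 to 7 for Kupffer cell and leukocyte markers, 1 to 5 for the methionine list, 5 to 10 for amino acid catabolism and 4 to 9 for nuclear receptors, and genes called higher 1 to 3 for lipogenesis and 5 to 9 for glucose metabolism. The cause of these shifts was not tested. Signals under the floor limit how large a change can be measured. Arrays at the floor show no spread, which lowers the SE and adjusted p of genes with many such arrays.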

Other observations

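Further gene groups, chosen after their values were seen and not tested as groups, are given as values. Both simple epithelial keratins of the array were higher, Krt18 at 13749 ± 1260 in VPA livers and 5359 ± 1222 in vehicle livers (2.61-fold) and Krt8 at 5456 ± 506 in VPA livers and 2626 ± 255 in vehicle livers (2.08-fold). Of 12 mitochondrial import and membrane proteins 9 rose and 1 fell, among them Atp5if1, the inhibitor of ATP synthase (5.23-fold higher), Tspo, an outer-membrane protein (3.07-fold higher), Tomm20, an import receptor (2.33-fold higher), and Slc25a10, the dicarboxylate carrier (1.57-fold lower). Of 22 lysosomal proteins and subunits of the vacuolar proton pump 9 rose, 1 fell and 12 did not pass (median log2 change 0.17). Cd63 was 3.62-fold, Fuca1 2.47-fold and the pump subunit Atp6v1d 2.26-fold higher, and Ctsc was 1.88-fold lower. Lamp1 (log2 change 0.01), Ctsb (0.16) and Psap (-0.11) were among those that did not pass.

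Of 12 hormone, growth factor and endocytic receptors 6 fell and none rose. Asgr2, a subunit of the asialoglycoprotein receptor, was 4.58-fold lower, Gcgr, the glucagon receptor, 3.02-fold lower, Avpr1a, a vasopressin receptor, 2.78-fold lower and Egfr 1.93-fold lower. Of 9 genes of phospholipid synthesis and transfer 3 rose and 3 fell. Pctp, the phosphatidylcholine transfer protein, averaged 4254 ± 519 in VPA livers and 1114 ± 88.8 in vehicle livers, and Pcyt2, of phosphatidylethanolamine synthesis, 2061 ± 339 in VPA livers and 7478 ± 1185 in vehicle livers.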
